A study of Mus musculus with 17 samples.

Results

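The genes described here were 36 mouse genes of glycolysis and of the response to low oxygen, chosen by symbol: glucose and lactate transporters, the enzymes of each glycolytic step with their isoforms, the kinases that close the entry of pyruvate to the mitochondrion, and the factor, regulators and targets of hypoxia signalling. Of these, 35 were found among 28670 genes, and 34 of those were tested. Pkm was not found under that symbol, and its values are not counted among the members. Vegfa was left out of the tests because the authors' software gave it a failed status in 1 library. Its values are given all the same.

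The 17 RNA-seq samples, all of mouse cells, form 7 groups by the labels and 9 once strain is read apart. In the 129/B6 (v6.5) background these were WT embryonic stem cells (ESC, n = 2, passage 10 to 15), WT induced pluripotent stem cells (iPSC, n = 1, passage 6), a clone of partially reprogrammed WT cells (piPSC, n = 2, passage 6), Nanog -/- ESC (n = 2, passage 6) and Nanog -/- iPSC of the clones G2 and G5 (n = 2 each, passage 6). In C57/B6 they were WT ESC (n = 2, passage 10 to 15), WT iPSC (n = 2, passage 10 to 15) and WT embryonic fibroblasts (MEF, n = 2, passage 2). Nanog encodes a transcription factor of the pluripotency network. Per the growth protocol, Nanog -/- fibroblasts came from chimeric embryos made with the Nanog -/- ESC and were sorted by GFP, reprogramming used retroviral Klf4, Sox2 and Oct4, c-Myc being added in some cases, and lines were kept on feeder cells in LIF and 2i, a pair of kinase inhibitors. MEF were grown in serum. Each clone is a single line, so a difference of a clone cannot be told apart from a difference of its genotype. Strain coincided with the prefix of the sample codes, AC for 129/B6 and JI for C57/B6, and those cannot be told apart, so groups were tested within a strain, and across strains only the difference between iPSC and ESC was.

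Glycolysis turns glucose into pyruvate in the cytosol. Lactate dehydrogenase then reduces pyruvate to lactate, or the pyruvate dehydrogenase complex passes it to the mitochondrion. Pyruvate dehydrogenase kinases switch that complex off. The hypoxia-inducible factor HIF-1 raises transcription of glucose transporters, most glycolytic enzymes, Ldha and Pdk1. Its alpha subunit is hydroxylated for destruction by the prolyl hydroxylases encoded by Egln1 and Egln3 when oxygen is present. Pluripotent mouse cells are known for a high rate of glycolysis.

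Nanog, the targeted gene, was at 568 and 574 FPKM (fragments per kilobase of transcript scaled for depth, the authors' unit) in 129/B6 WT ESC, at 762 in WT iPSC, at 45.8 and 49.5 in Nanog-null ESC, at 27.2 and 27.8 in clone G2, at 40.0 and 43.0 in clone G5 and at 3.12 and 2.91 in piPSC. It was thus low and not absent in the Nanog-null lines, and which part of the transcript the deletion takes out is not given in the sources used here. In C57/B6 it was at 295 and 323 in ESC, 286 and 270 in iPSC, and 0.242 and 0.0539 in MEF. Depth was 17.7 to 43.5 M assigned fragments in 129/B6 and 7.80 to 30.1 M in C57/B6. The summed FPKM of 12 fibroblast and feeder markers was 3815 to 3865 in MEF, 180 to 187 in 129/B6 WT ESC, 264 in WT iPSC, 766 to 775 in Nanog-null ESC, 1164 to 1236 in G2, 471 to 472 in G5, 20.5 to 75.5 in piPSC, 106 to 121 in C57/B6 ESC and 136 to 137 in C57/B6 iPSC. All 12 passed an FPKM of 1 in MEF and in every Nanog-null sample, 10 did in 129/B6 WT ESC and 1 to 3 in piPSC. None of 10 pluripotency markers passed it in MEF, 5 to 7 did in piPSC, and all 10 did in the other samples. All 7 macrophage markers found passed it in MEF, with a sum of 621 to 624 against 69.5 to 96.9 in C57/B6 ESC. The samples are bulk cultures, in which fewer cells of a type and less RNA per cell cannot be told apart.

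**Figure D1:**
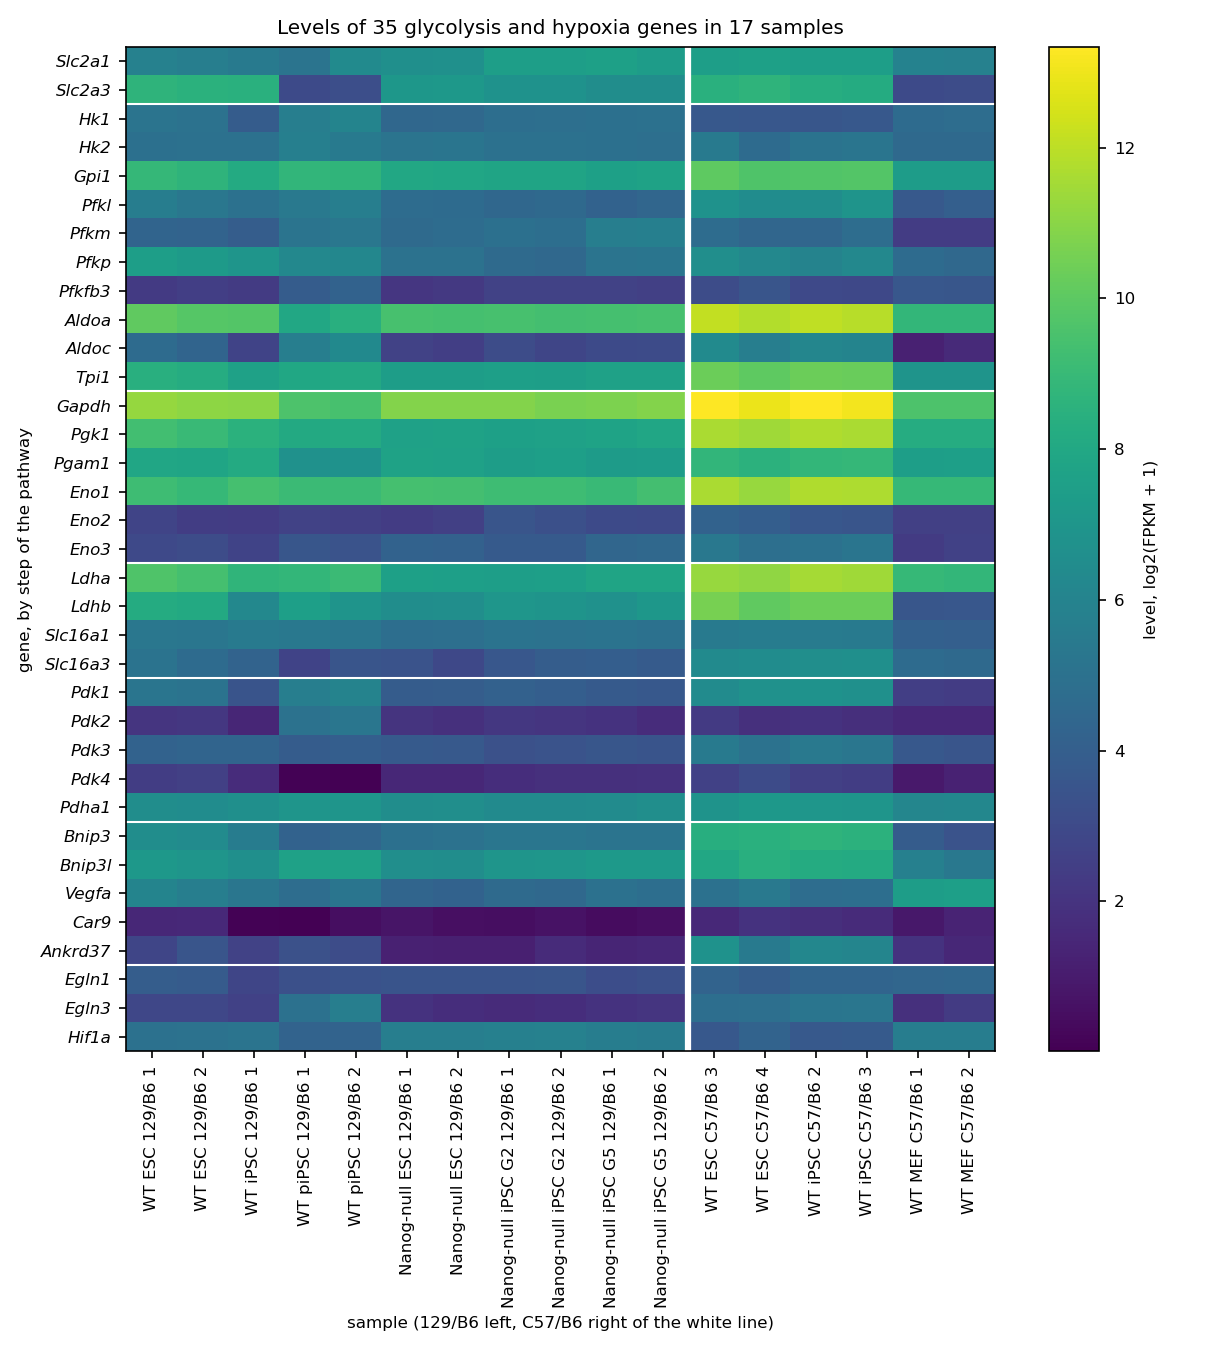
Levels of the 35 genes found (rows, ordered by step of the pathway, as log2 of FPKM + 1 in colour) in the 17 samples (columns, 129/B6 to the left of the white line). Gapdh, Aldoa, Pgk1, Eno1 and Ldha are the brightest rows, they are brighter in C57/B6 ESC and iPSC than in any 129/B6 sample, and the 2 MEF columns are dark for Ldhb, Pdk1, Aldoc, Bnip3 and Ankrd37.

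The WT ESC of both strains were set side by side without a test, since strain and batch coincide. The C57/B6 values lay above the 129/B6 values for 26 of 35 members, below them for 4 (Hk1, Pfkp, Vegfa and Hif1a) and overlapped for 5. Over 15316 genes the shares were 41.4% above and 38.3% below. The FPKM of all genes summed to 0.667 and 0.619 M in the 129/B6 ESC and to 1.61 and 1.08 M in the C57/B6 ESC, so this count depends on the scale. With each sample's FPKM rescaled to a common sum, 15 members lay above, 13 below and 7 overlapped, with 14.9% of genes above and 68.5% below. On that scale the C57/B6 mean was 1.97 times the 129/B6 mean for Gapdh, 2.54 times for Pgk1, 1.91 times for Bnip3, 1.70 times for Slc2a1 and 0.494 times for Slc2a3. The values that follow are on the authors' scale. Gapdh, the enzyme that oxidises glyceraldehyde 3-phosphate, was at 2378 and 2123 FPKM in 129/B6 ESC and at 10342 and 8013 in C57/B6 ESC. Pgk1, which makes the first ATP of the pathway, was at 621 and 523 against 3186 and 2754. Bnip3, a mitochondrial receptor for autophagy and a HIF target, was at 91.9 and 85.5 against 333 and 349. The glucose transporter Slc2a1 was at 56.5 and 52.0 against 176 and 192, while Slc2a3, the neuronal-type glucose transporter, overlapped at 413 and 370 against 357 and 413.

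In C57/B6, MEF differed from ESC at every tested member. By limma on log2(FPKM + 1), with a Benjamini-Hochberg adjusted p under 0.05 over all 15298 genes tested, 30 of 34 were lower in MEF and 4 were higher, where the shares over all genes were 42.1% lower and 39.4% higher. The median log2 difference of the members was -2.27 and that of all genes -0.05. ESC and MEF values did not overlap for any of the 34. The share of all genes without overlap was not counted, and 81.4% of all genes were called in this comparison. The 4 that were higher were Hk1, Pfkfb3, Egln1 and Hif1a. Of all 34 calls, those of Car9, Egln1, Hk2, Pdk2 and Pfkfb3 were lost when 1 or another library was left out. With each sample's FPKM rescaled to 1 common sum, which moves the median of all genes by 1.02 in this comparison, 21 members were lower and 7 higher, against 20.9% and 61.8% of all genes.

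Among the transporters, Slc2a3 was at 357 and 413 FPKM in ESC and at 7.15 and 7.49 in MEF, a log2 difference of -5.53 ± 0.10 (SE, limma adjusted p = 7.99e-13). Slc2a1 was at 58.7 and 57.5 in MEF against 176 and 192 in ESC (-1.64 ± 0.27). Its call was lost with values rescaled to a common sum. In the preparatory phase, where glucose is phosphorylated and split, Hk1 rose from 11.8 and 11.4 FPKM in ESC to 24.2 and 26.1 in MEF. All 3 phosphofructokinases, which commit sugar to glycolysis, fell, with log2 differences of -2.78 for Pfkl, -2.20 for Pfkm and -1.78 for Pfkp. The aldolases that split the sugar fell as well, Aldoa from 4425 and 3599 FPKM to 451 and 460, and Aldoc from 83.9 and 51.6 to 1.37 and 1.98. Hk2, the hexokinase known for its binding to mitochondria, went from 43.5 and 24.2 to 23.1 and 23.0 FPKM (-0.48 ± 0.19, limma adjusted p = 0.0386), but it was higher in MEF by edgeR on the fragments (0.63), so it has no settled direction.

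All 6 tested members of the payoff phase fell in MEF. With values rescaled to a common sum, however, Pgam1 was higher there (0.23) and the Eno2 call was lost. Gapdh was at 776 and 792 FPKM (-3.54 ± 0.15, limma adjusted p = 5.73e-10) and Pgk1 at 304 and 310 (-3.27 ± 0.11). Eno1, the enolase of most tissues, was at 492 and 493 in MEF against 3183 and 2523 in ESC. Pgam1 had the smallest difference of these (-1.17 ± 0.08). The gene listed under Pkm2, an older symbol for the muscle-type pyruvate kinase gene and not counted among the members, was at 3132 and 2766 FPKM in ESC and at 604 and 602 in MEF.

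Among the 34 members the largest difference was that of Ldhb, the lactate dehydrogenase subunit that favours lactate oxidation. It was at 1581 and 1086 FPKM in ESC and at 11.1 and 11.5 in MEF (-6.74 ± 0.20, limma adjusted p = 2.50e-11). Ldha, the subunit that favours lactate production, was at 2508 and 2265 against 484 and 451 (-2.35 ± 0.11). Ldhb therefore made 32.4% to 38.7% of the summed FPKM of Ldha and Ldhb in ESC and 2.24% to 2.50% in MEF. The lactate transporters Slc16a1 and Slc16a3 also fell, with log2 differences of -1.43 and -1.83. Both of these calls were lost with values rescaled to a common sum.

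Of the genes at pyruvate entry, Pdk1 was at 86.4 and 108 FPKM in ESC and at 4.53 and 4.12 in MEF (-4.20 ± 0.12, limma adjusted p = 1.85e-11). Pdk3 and Pdk4 fell by 1.70 each. Among hypoxia targets, Bnip3 went from 333 and 349 to 13.9 and 9.59 (-4.77 ± 0.13), and Ankrd37, a small ankyrin protein, from 111 and 44.9 to 2.90 and 1.86. Hif1a, the oxygen-regulated subunit of HIF-1, moved the other way, from 11.9 and 18.4 to 49.5 and 49.9 (1.68 ± 0.14, limma adjusted p = 1.94e-07). Vegfa, an angiogenic HIF target, was also higher in MEF, at 174 and 187 against 30.1 and 40.9 FPKM (2.33 ± 0.16 by limma once genes of failed status were kept). So HIF targets were found on both sides of this comparison.

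**Figure D2:**
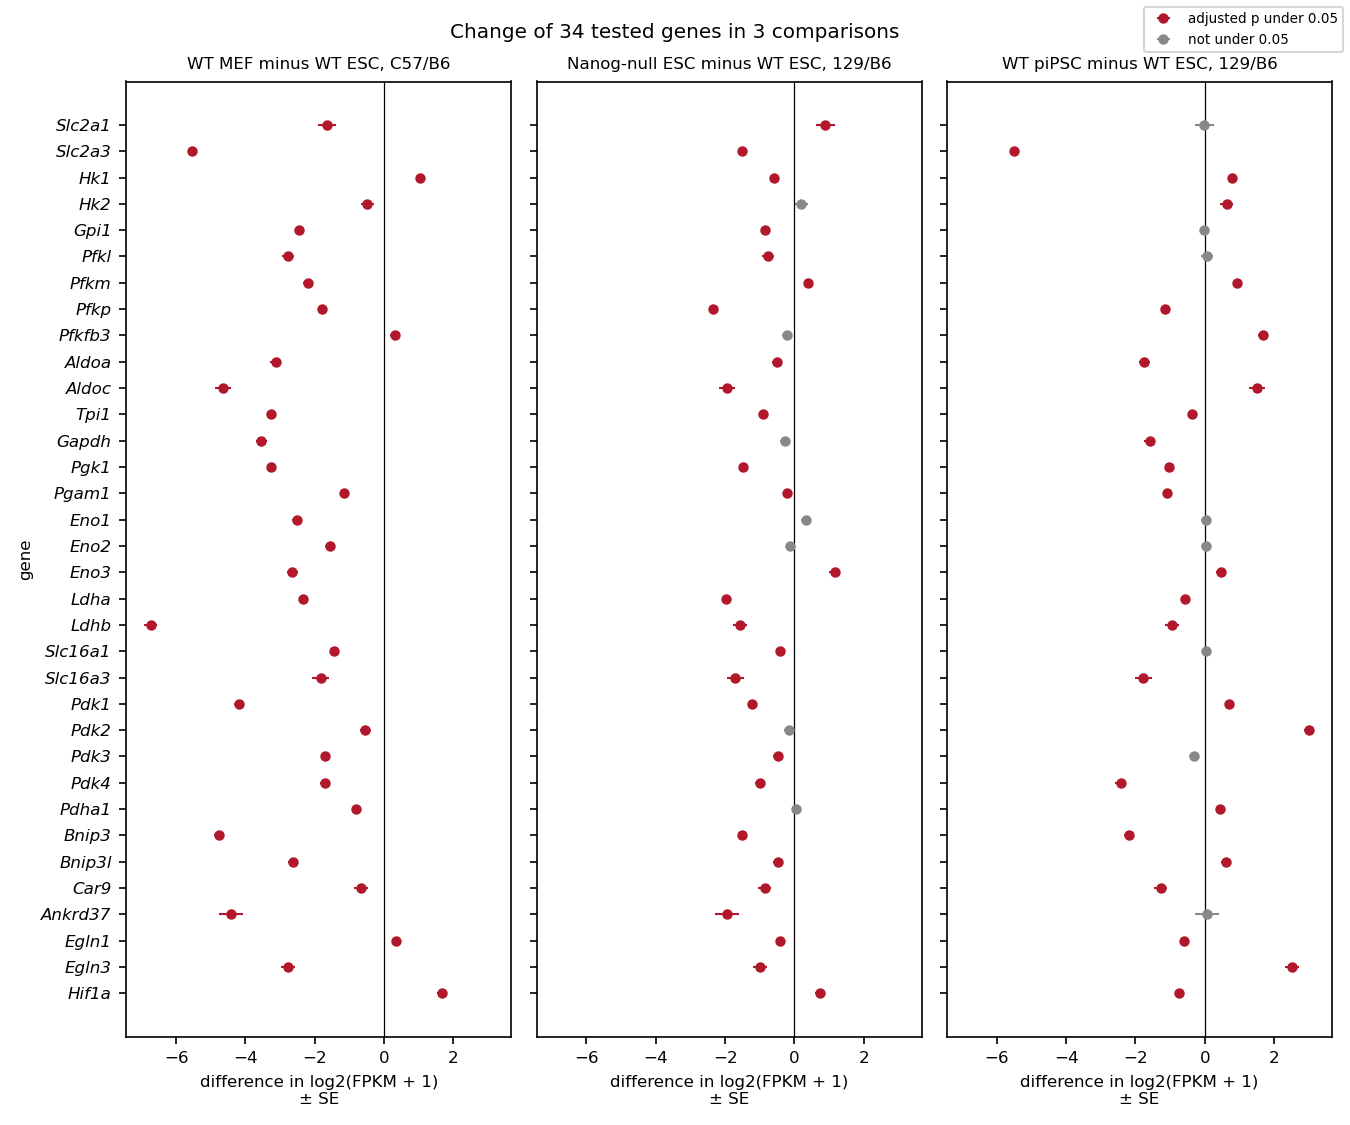
Difference in log2(FPKM + 1) with its SE from limma for the 34 tested genes (rows) in 3 comparisons (panels), red where the adjusted p is under 0.05. In MEF 30 genes lie left of 0 in red, in Nanog-null ESC 23, and in piPSC 15 lie left and 11 right.

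Promoter sequence is shown for members that fell by more than 1 on the log2 scale both in MEF and, as given further on, in Nanog-null ESC. There were 10 such members, 9 of them have a RefSeq promoter window, and the 4 with the most matches to the core of the HIF binding site are printed. That core was searched as ACGTG and GCGTG on both strands, and capitals mark the matches. Each window runs from 250 bases before to 50 after an annotated start on the gene's strand, in GRCm38.p6. Ldha lies at chr7:46845554-46845853 on the + strand, Bnip3 at chr7:138909457-138909756 on the - strand, Pfkp at chr13:6648722-6649021 on the - strand and Ankrd37 at chr8:45999801-46000100 on the - strand.
Ldha: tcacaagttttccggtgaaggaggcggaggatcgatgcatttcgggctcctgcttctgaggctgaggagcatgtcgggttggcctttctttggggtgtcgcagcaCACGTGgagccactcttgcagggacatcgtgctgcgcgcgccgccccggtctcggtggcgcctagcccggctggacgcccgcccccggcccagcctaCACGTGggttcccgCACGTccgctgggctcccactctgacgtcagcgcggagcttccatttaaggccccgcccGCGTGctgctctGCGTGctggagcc
Bnip3: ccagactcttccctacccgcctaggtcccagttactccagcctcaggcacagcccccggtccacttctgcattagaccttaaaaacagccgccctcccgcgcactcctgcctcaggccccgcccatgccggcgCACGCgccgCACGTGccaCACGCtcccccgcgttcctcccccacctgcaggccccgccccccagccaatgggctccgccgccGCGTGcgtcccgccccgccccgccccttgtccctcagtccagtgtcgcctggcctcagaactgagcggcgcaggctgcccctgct
Pfkp: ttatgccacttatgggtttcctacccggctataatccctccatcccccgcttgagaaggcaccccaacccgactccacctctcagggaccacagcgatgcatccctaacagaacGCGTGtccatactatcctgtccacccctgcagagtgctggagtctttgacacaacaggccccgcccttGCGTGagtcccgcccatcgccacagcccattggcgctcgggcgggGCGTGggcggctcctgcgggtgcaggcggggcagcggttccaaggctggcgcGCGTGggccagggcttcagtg
Ankrd37: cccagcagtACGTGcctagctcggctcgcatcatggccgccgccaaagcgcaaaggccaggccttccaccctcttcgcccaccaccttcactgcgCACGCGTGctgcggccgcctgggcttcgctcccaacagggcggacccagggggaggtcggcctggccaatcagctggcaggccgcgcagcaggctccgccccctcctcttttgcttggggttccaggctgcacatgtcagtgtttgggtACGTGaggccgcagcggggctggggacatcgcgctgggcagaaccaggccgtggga
The Ldha window held 7 matches, 5 of them ACGTG, and 2 copies of CACGTG, a palindrome that contains ACGTG on both strands. Each copy of CACGTG therefore counts as 2 matches at 1 place, and the Bnip3 window held 1 copy. The Bnip3 window held 5 matches, Ankrd37 4 and Pfkp 4, all of GCGTG. Over all members, 34 symbols including Pkm had 49 windows, of which 53.1% held ACGTG and 79.6% either motif. Over 32851 windows of all genes the shares were 19.6% and 43.8%, and over 21263 windows of protein-coding genes 20.9% and 49.3%. Both motifs contain a CpG, and members' windows had a median of 20 CpG against 13 in protein-coding windows and 7 in all. Its part in the shares was not tested. A match is a run of letters and not a bound site.

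Between C57/B6 iPSC and ESC no member was called in either direction, where the shares over all genes were 0.399% higher and 0.386% lower. At an unadjusted p under 0.05 there were 6 members by limma, with 13.5% of all genes, and edgeR also called 0 at an adjusted p under 0.05. Slc2a3 was at 322 and 299 FPKM in iPSC against 357 and 413 in ESC (-0.30 ± 0.10, limma adjusted p = 0.205), and Ldhb at 1281 and 1308 against 1581 and 1086. The ESC replicates differed more from each other than the iPSC replicates did for Ankrd37 (111 and 44.9 against 71.4 and 65.5) and Ldhb. Without WT ESC 3 the fit called 11 members and 30.6% of all genes, and without WT ESC 4 it called 2 members and 4.04% of all genes, so the count rests on that pair of libraries.

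The WT iPSC sample of 129/B6 was lower than its ESC at 13 of 34 members and higher at none, with 12.8% lower and 13.5% higher over all genes. This comparison has 1 iPSC sample, whose spread is taken to equal that of other groups, and its passage differs from that of the ESC. Pdk1 was at 10.2 FPKM in the iPSC and at 36 and 32.9 in ESC (-1.67 ± 0.15, limma adjusted p = 8.77e-06). Ldhb was at 73.4 against 296 and 271 (-1.93 ± 0.24), Aldoc at 5.56 against 24.4 and 19.1, and Hk1 at 13.6 against 33.6 and 31.9. Egln1 was at 5.87 against 14.6 and 13.2. Slc2a3, Slc2a1 and Gapdh were not called, and Slc2a3 stood at 359 FPKM against 413 and 370.
Car9, the HIF-induced carbonic anhydrase, was low throughout, with 4 assigned fragments in this sample against 86 and 54 in ESC. Tested directly, the iPSC minus ESC difference was lower in 129/B6 than in C57/B6 for 10 members (Hk1, Aldoc, Tpi1, Pgk1, Ldha, Ldhb, Pdk1, Bnip3, Egln1 and Car9) and higher for none. Over all genes that test called 8.64% lower and 9.3% higher. Leaving out WT ESC 3 raised the number of members called to 18, and the share of all genes called from 17.9% to 38.3%.

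Partially reprogrammed 129/B6 cells differed from ESC in both directions, with 15 members lower and 11 higher against 36% and 32.3% of all genes. Slc2a3 fell from 413 and 370 FPKM to 6.96 and 8.42 (-5.50 ± 0.10, limma adjusted p = 1.65e-12). Slc2a1 was at 34.6 and 83.3 in the replicates, on either side of the ESC values of 56.5 and 52.0, so the groups overlapped. Slc2a1 made 83.2% to 90.8% of the pair's summed FPKM in piPSC and 12% to 12.3% in ESC.

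Aldoa, the aldolase of most tissues, went from 1066 and 901 FPKM in ESC to 253 and 337 in piPSC (-1.74 ± 0.15), while Aldoc, the brain-type aldolase, went from 24.4 and 19.1 to 51.5 and 78.7 (1.52 ± 0.24, limma adjusted p = 0.000105). Aldoc made 16.9% to 18.9% of aldolase FPKM in piPSC and no more than 2.24% in any other sample. Gapdh fell from 2378 and 2123 to 789 and 702, Pgam1 by 1.10 and Pgk1 by 1.02 on the log2 scale. Pfkp fell by 1.15 and Pfkm rose by 0.94. Hk1 rose to 51.7 and 63.0 FPKM, and Pfkfb3, which makes the activator fructose 2,6-bisphosphate, rose from 3.84 and 4.60 to 14.0 and 17.3.

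At pyruvate entry the kinases moved apart in piPSC. Pdk2, the widely expressed kinase, rose from 3.16 and 3.47 FPKM to 31.5 and 36.5 (3.02 ± 0.15, limma adjusted p = 3.57e-09), and its share of kinase FPKM went from 5.19% to 5.78% up to 32.3% to 32.5%. Pdk4, the kinase induced by fasting in muscle, had 7 and 1 assigned fragments in piPSC against 441 and 387 in ESC. Pdk1 rose to 52.1 and 60.9 and Pdk3 was not called. Among hypoxia genes, Egln3 rose from 6.15 and 6.16 to 30.3 and 52.0 (2.51 ± 0.20), Bnip3 fell from 91.9 and 85.5 to 17.4 and 20.1 (-2.19 ± 0.13), Bnip3l, its homologue, rose by 0.61, and Hif1a fell from 30.1 and 31.5 to 18.2 and 18.2. HIF targets thus went both ways, and the transcript of the HIF-1 alpha subunit was lower. That of Epas1, the HIF-2 alpha subunit and not a member, was higher, at 69.3 and 85.4 FPKM against 5.82 and 6.16 in ESC. Myc, one of the factors used in reprogramming, was at 1237 and 1506 FPKM in piPSC against 4.21 and 2.84 in ESC, and its part in these changes was not tested.

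**Figure D3:**
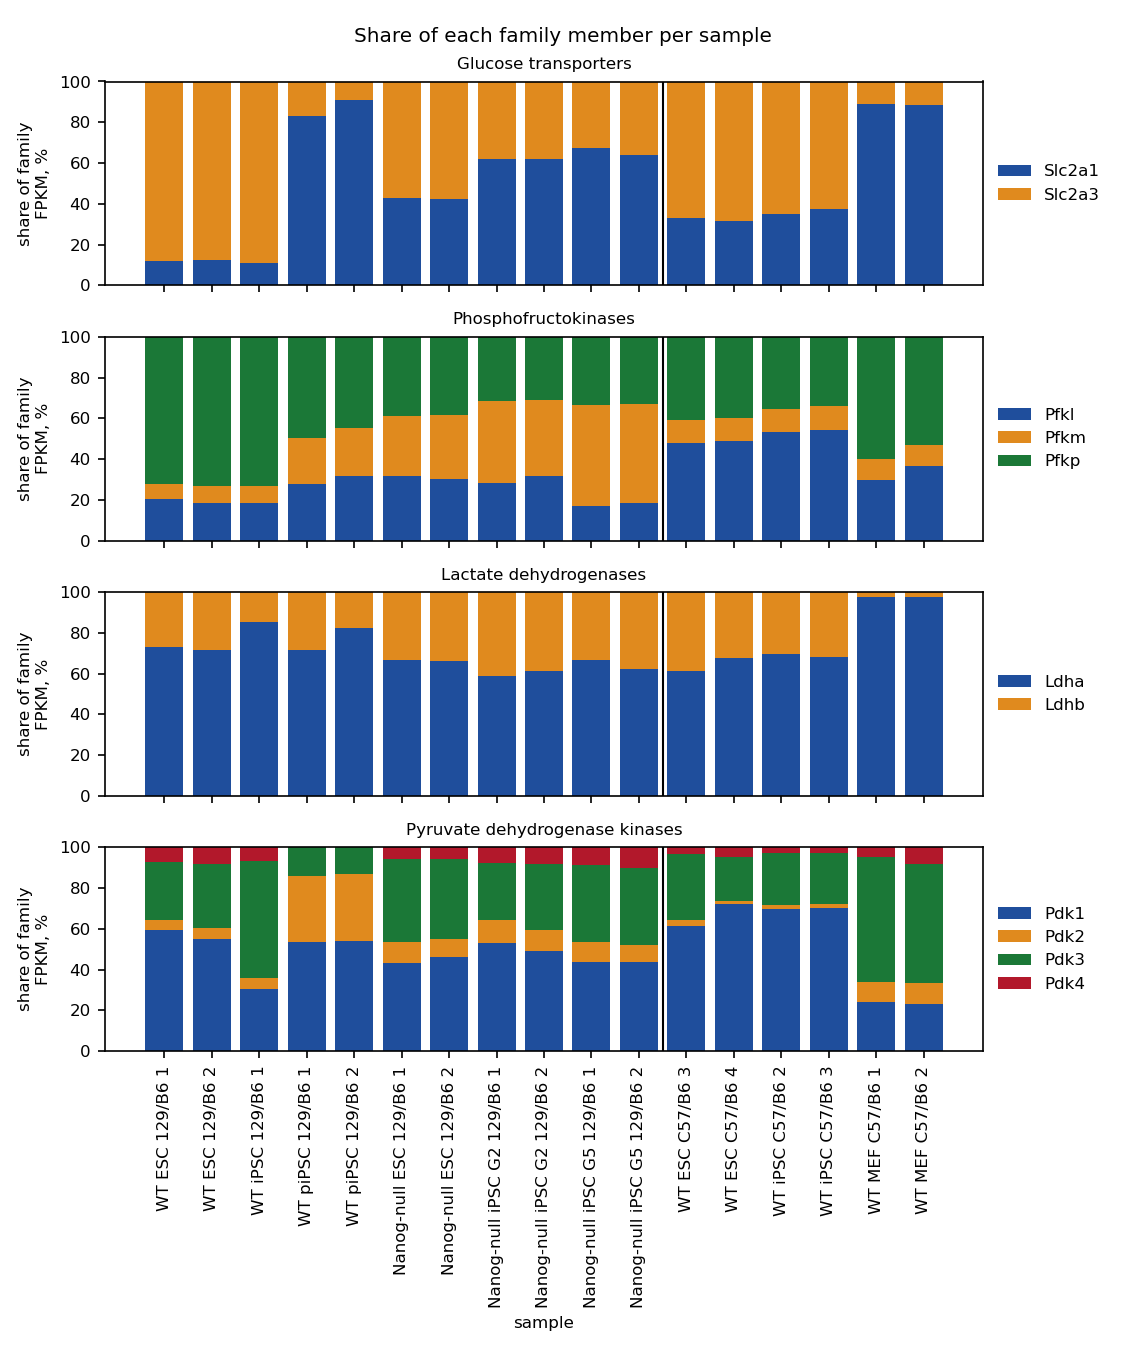
Share of the family's summed FPKM held by each gene (stacked bars, percent) in each of the 17 samples, for glucose transporters, phosphofructokinases, lactate dehydrogenases and pyruvate dehydrogenase kinases. Slc2a1 holds 12% to 12.3% in 129/B6 ESC, 42.3% to 42.7% in Nanog-null ESC and 83.2% to 90.8% in piPSC, and Pdk2 reaches 32.3% to 32.5% only in piPSC.

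Nanog-null ESC had lower levels of most members than 129/B6 WT ESC. Of 34, 23 were lower and 4 (Slc2a1, Pfkm, Eno3 and Hif1a) higher, against 29.2% and 30% of all genes. The median log2 difference was -0.55, and 0.00 over all genes. Passage differed between these groups and cannot be told apart from genotype. The fibroblast and feeder markers moved with the comparison, at 766 to 775 FPKM against 180 to 187, and their part was not tested. With values rescaled to a common sum, which moves the median of all genes by 0.22 here, 16 members were lower and 6 higher, against 17.6% and 38.7% of all genes.

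All 4 tested members of lactate handling and all 4 tested hypoxia targets were lower in Nanog-null ESC on the authors' scale. With values rescaled to a common sum, the calls of Slc16a1 and Bnip3l were lost. Quantile normalization also lost the Bnip3l call. Ldha was at 809 and 682 FPKM in WT ESC and at 189 and 186 in Nanog-null ESC (-1.98 ± 0.11, limma adjusted p = 4.47e-08). Ldhb went from 296 and 271 to 94.0 and 94.3, and Slc16a3, the lactate exporter induced by HIF, from 32.5 and 24.4 to 9.57 and 6.56. Bnip3 was at 30.0 and 31.3 against 91.9 and 85.5 (-1.50 ± 0.13), and Ankrd37 at 1.33 and 1.26 against 5.95 and 10.4. Pdk1 fell to 13.7 and 14.6, and Vegfa was at 19.8 and 17.7 against 63.0 and 52.3. Hif1a rose from 30.1 and 31.5 to 51.6 and 51.6 (0.73 ± 0.14, limma adjusted p = 0.000734), opposite to the targets named in this paragraph. Not all HIF targets went that way. Slc2a1 rose from 56.5 and 52.0 to 100.5 and 102, and of 31 other hypoxia targets 12 were lower and 10 higher.

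Some isoforms of the same step moved in opposite directions in Nanog-null ESC. Pfkp, the platelet-type phosphofructokinase, fell from 175 and 152 FPKM to 31.6 and 31.3 (-2.34 ± 0.13, limma adjusted p = 2.61e-08), while Pfkm, the muscle type, rose from 18.6 and 18.2 to 24.0 and 25.3. Pfkp's share of the family went from 72.1% to 73.0% down to 38.5% to 38.9%. Slc2a3 fell from 413 and 370 to 135 and 139, and Slc2a1 rose from 56.5 and 52.0 to 100.5 and 102 (0.89 ± 0.27, limma adjusted p = 0.0140). Eno3, the muscle-type enolase, rose from 6.84 and 7.57 to 17.6 and 17.1, while Eno1 was not called. Gapdh was not called either (-0.27 ± 0.15), although its values, 1848 and 1881, lay below both WT values. The calls of Aldoa, Bnip3l, Pdk3, Pfkm, Pgam1 and Slc2a1 were lost when 1 or another library was left out.

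**Figure D4:**
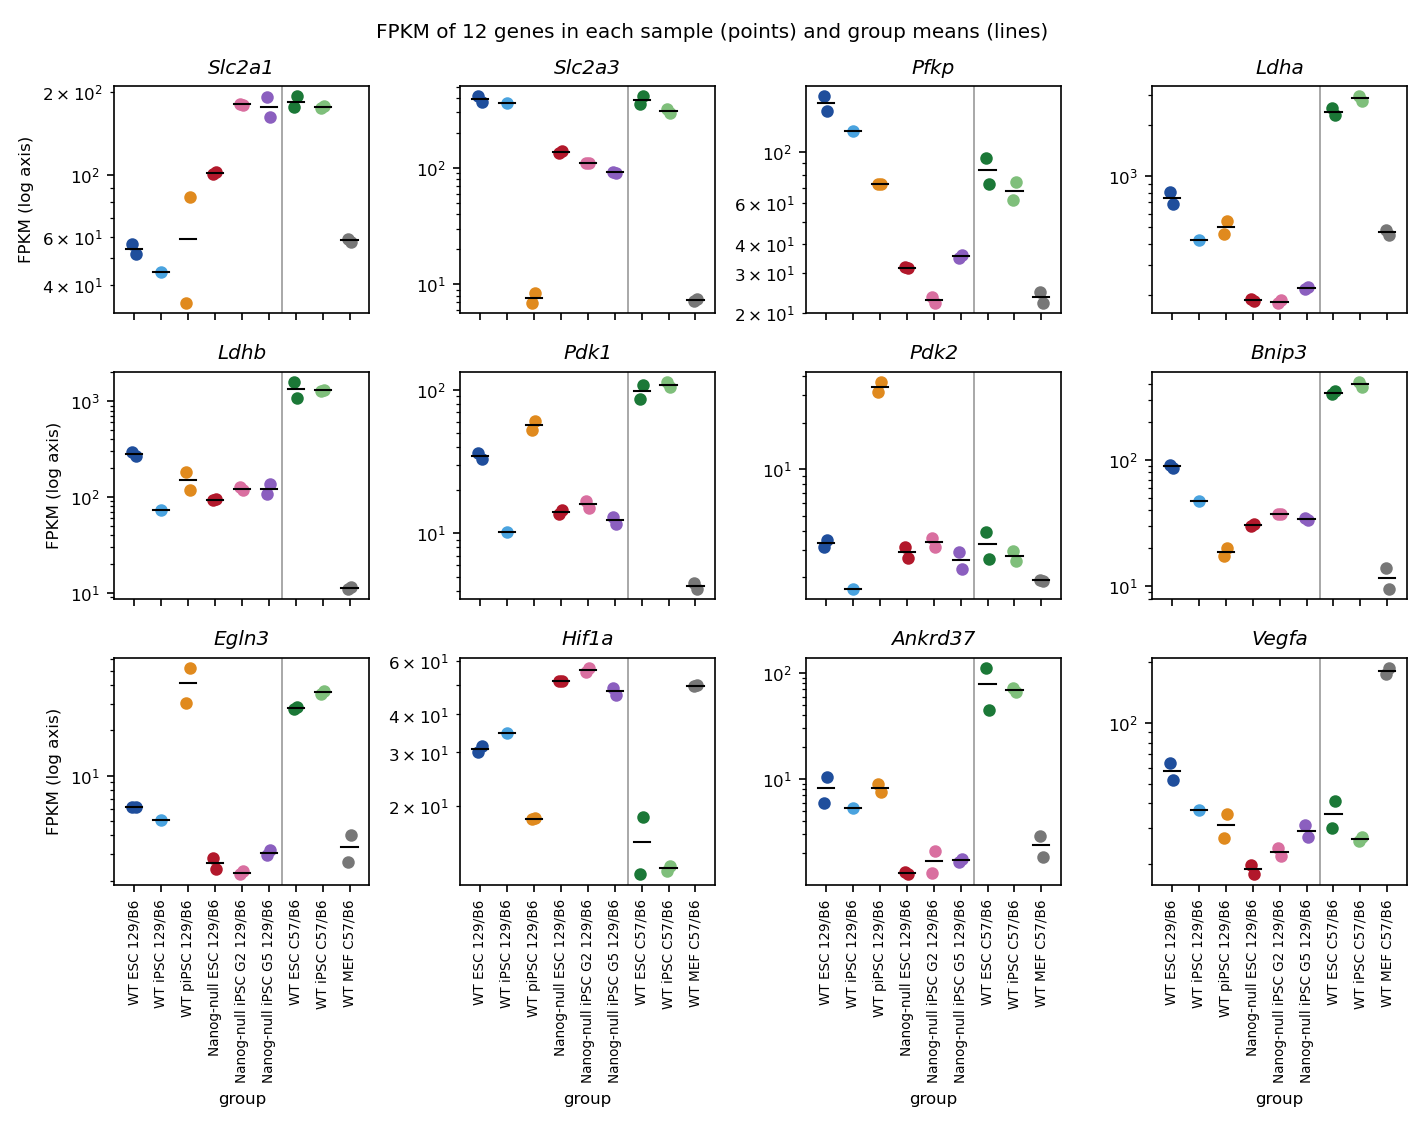
FPKM of 12 genes (log axis) in every sample, with a point per sample, a line at each group mean and 129/B6 groups to the left of the grey line. Ldha, Pdk1 and Bnip3 sit below 129/B6 WT ESC in all 3 Nanog-null groups, Hif1a sits above it, and Pdk2 is high in piPSC. Egln3 is high in piPSC and also in C57/B6 ESC and iPSC.

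Nanog-null iPSC, read as the mean of clones G2 and G5, differed from the single WT iPSC in both directions, with 12 members lower and 11 higher against 28.2% and 28.4% of all genes. The fibroblast and feeder markers moved with the comparison, at 1164 to 1236 FPKM in G2 and 471 to 472 in G5 against 264 in WT iPSC, and their part was not tested. Slc2a1 was at 181 and 180 FPKM in G2 and at 191 and 163 in G5 against 44.8 in WT iPSC (1.97 ± 0.30, limma adjusted p = 0.000169). Slc2a3 was at 111 and 111 in G2 and 92.5 and 91.4 in G5 against 359 (-1.82 ± 0.11). Pfkp was at 23.6 and 22.2 in G2 and 34.7 and 35.9 in G5 against 125. Ldha was at 181 and 187 in G2 and 219 and 223 in G5 against 424. Hk1, Pfkm, Eno2, Eno3, Ldhb, Pdk1, Pdk2, Bnip3l, Egln1 and Hif1a were higher than in WT iPSC along with Slc2a1. The Bnip3l call was lost when 1 library was left out, as was the lower call of Bnip3. With values rescaled to a common sum, the calls of Pdk1, Hif1a, Bnip3l, Slc16a1 and Bnip3 were lost. The split was then 10 lower and 8 higher, against 22.8% and 28.7% of all genes. Quantile normalization lost the calls of Pdk1, Gpi1, Pdk2 and Bnip3. The transporter and Pfkp differences had the same sign as in the ESC comparison, which uses other WT samples. Per the growth protocol, the Nanog -/- fibroblasts came from embryos made with the Nanog -/- ESC, so this is not separate support.

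Whether the Nanog-null minus WT difference was the same in iPSC as in ESC was tested directly. It was higher in iPSC for 16 members and lower for 1, Pgam1, against 14.3% and 14.6% of all genes. The largest were Ldhb (2.30 ± 0.30), Aldoc (2.22 ± 0.35), Pdk1 (1.65 ± 0.18) and Hk1 (1.61 ± 0.14). These were also genes with low values in the single WT iPSC sample, which enters the difference as its only WT iPSC. Slc2a3, Slc2a1, Pfkp and Hif1a were not called in this test. With values rescaled to a common sum, which moves the median of all genes by -0.17, the split was 13 higher and 3 lower, against 8.54% and 17.4% of all genes.

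**Figure D5:**
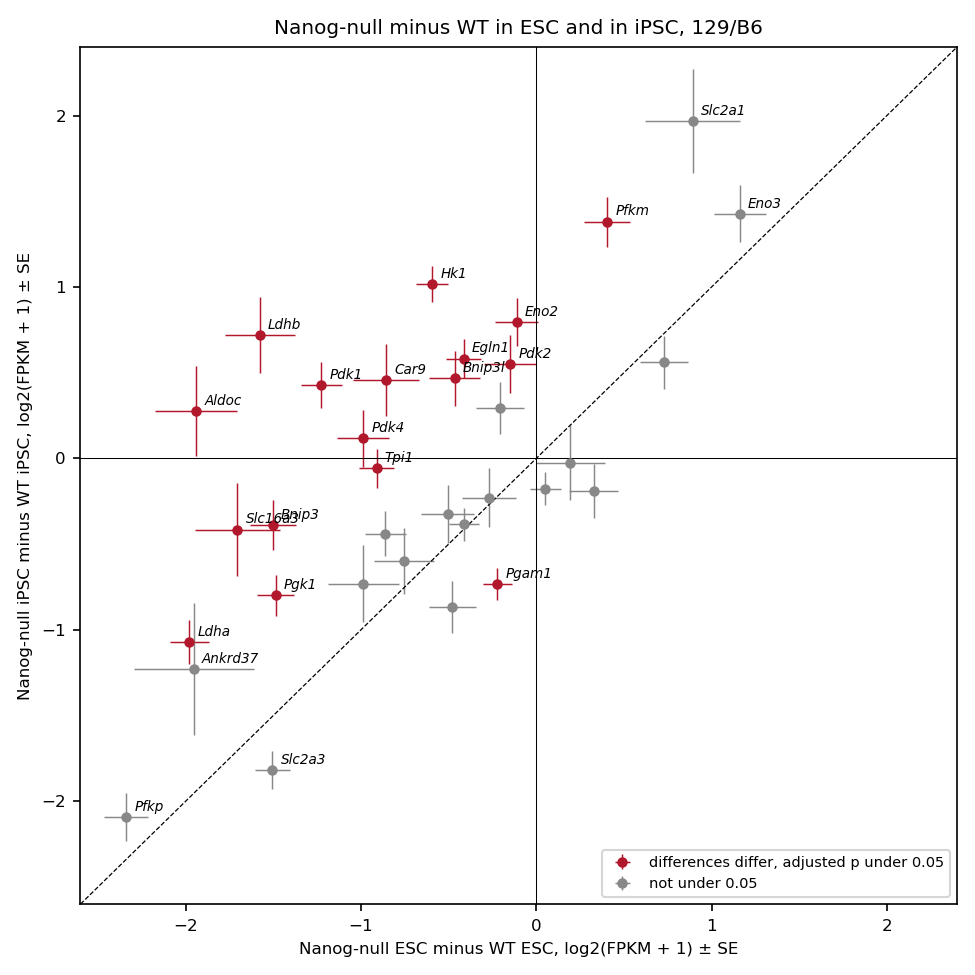
Nanog-null minus WT difference in log2(FPKM + 1) in 129/B6 ESC (horizontal) and in iPSC (vertical), with SE bars and a dashed line of equality, for the 34 tested genes. Red marks the 17 genes whose differences differ at an adjusted p under 0.05, of which 16 lie above the line, and Pfkp and Slc2a3 are low on both axes.

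Set against Nanog-null ESC, the Nanog-null iPSC were higher at 7 members and lower at 2, where 10.1% and 8% of all genes were. Slc2a1 rose from 100.5 and 102 FPKM (0.81 ± 0.24, limma adjusted p = 0.0344), Pfkm by 0.62 ± 0.11 and Eno2, the neuronal enolase, by 0.71 ± 0.11. Slc2a3 fell by 0.44 and Pgam1 by 0.26 on the log2 scale. Ldha, Pdk1, Hif1a and Gapdh overlapped between these groups. With values rescaled to a common sum the split was 2 higher and 2 lower, against 6.79% and 6.66% of all genes. Leaving out either Nanog-null ESC library left 3 calls, with 8.09% and 8.92% of all genes called. Leaving out replicate 1 of G2 or of G5 left 5, with 13.3% and 13.2% of all genes. The calls of Pfkm and Eno2 were the ones that held in each case.

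Against piPSC, the Nanog-null iPSC were lower at 18 members and higher at 11, with 35.7% and 38.5% over all genes. The fibroblast and feeder markers summed to 20.5 to 75.5 FPKM in piPSC and to 471 to 1236 in the clones, and their part was not tested. Slc2a3 was 3.56 ± 0.09 higher on the log2 scale (limma adjusted p = 4.73e-12), Aldoa and Gapdh were each 1.24 higher, and Hif1a 1.46 higher. Egln3 was lower by -3.48 ± 0.17, Pdk2 by -3.15 ± 0.13, Aldoc by -3.02 ± 0.20 and Pdk1 by -1.93 ± 0.10. Several comparisons above share samples, the 129/B6 ESC with 3 of them and piPSC with 2, so their values are given side by side and not as separate support.

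The clones G2 and G5 differed at 3 members, all lower in G2, against 4.73% lower and 5.02% higher over all genes. Pfkm was at 29.9 and 27.0 FPKM in G2 and 51.2 and 52.8 in G5 (-0.85 ± 0.13, limma adjusted p = 0.00147), Pfkp at 23.6 and 22.2 against 34.7 and 35.9, and Eno3 at 12.7 and 12.9 against 19.9 and 22.0. Pfkm made 48.6% to 49.4% of phosphofructokinase FPKM in G5 and 37.6% to 40.1% in G2. Higher calls in G2 appeared with other scalings. Quantile normalization gave 2 higher and 3 lower, against 6.8% and 6.17% of all genes. With TMM, its trimmed mean of ratios, edgeR gave 3 and 3, against 7.92% and 6.31%. FPKM scaled by TMM gave 1 and 3, against 5.22% and 4.5%. Leaving out replicate 2 of G2 or of G5 left 1 call, with 4.3% and 5.05% of all genes called. The fibroblast and feeder markers differed between the clones as well (1164 to 1236 and 471 to 472), and their part was not tested.

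The other genes of these pathways are given by counts, and each count is to be read against the shares over all genes, which were 42.1% lower and 39.4% higher in MEF, 36% and 32.3% in piPSC, 29.2% and 30% in Nanog-null ESC, and 28.2% and 28.4% in Nanog-null iPSC against WT iPSC. Of 26 tested genes of glucose handling outside the members, 16 were lower and 6 higher in MEF, 12 and 8 in piPSC, 11 and 5 in Nanog-null ESC, and 4 and 13 in Nanog-null iPSC against WT iPSC. Of 31 other hypoxia targets, 15 were lower and 10 higher in MEF, 13 and 11 in piPSC, 12 and 10 in Nanog-null ESC, and 7 and 14 in Nanog-null iPSC against WT iPSC. Lox, a collagen cross-linking enzyme and HIF target that fibroblasts express, was at 614 and 615 FPKM in MEF, at 183 and 168 in Nanog-null ESC and at 33.5 and 27.7 in 129/B6 WT ESC, and it moved with the fibroblast markers. Epas1, the HIF-2 alpha subunit, was at 69.3 and 85.4 in piPSC against 5.82 and 6.16 in ESC (3.48 ± 0.12, limma adjusted p = 1.21e-10). Fbp2, the muscle form of the gluconeogenic fructose bisphosphatase, was at 38.3 and 37.1 in Nanog-null ESC, 20.8 and 19.5 in WT ESC and 2.69 in the 129/B6 WT iPSC. In the 7 genes of the pentose phosphate pathway, 4 were lower and 2 higher in MEF, and 3 lower and 2 higher in Nanog-null ESC. Of 7 further genes of the pyruvate dehydrogenase complex, 1 was lower and 4 higher in MEF, and of 10 other HIF regulators, 2 were lower and 5 higher. These lists were counted on the authors' scale only, and rescaling to a common sum moves the median of all genes by 1.02 for MEF.

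Within 129/B6, by group mean, WT ESC held the highest level for 15 of 35 members and piPSC for 11, while WT iPSC held the lowest for 10 and piPSC for 8. Such ranks were not counted over all genes, so these counts have no share to be read against. The order of Slc2a1 by group mean was WT iPSC, WT ESC, piPSC, Nanog-null ESC, G5 and G2. The piPSC values span those of WT iPSC and WT ESC, and the values of the clones overlap. The order of Hif1a was piPSC (18.2 and 18.2), WT ESC, WT iPSC (34.7), G5 (48.9 and 46.5), Nanog-null ESC (51.6 and 51.6) and G2 (55.1 and 56.9), and G5 and G2 did not differ by limma.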

How the data were processed

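Per the labels' protocols, total RNA of a RIN above 7.5 went into TruSeq RNA v2 libraries. That kit does not mark strand, so reads of a gene and of an overlapping antisense gene cannot be told apart. Cuffdiff 2.1.1, Bowtie2 2.0.5, TopHat2 2.0.7 and CASAVA are named in the submitters' processing notes, as are the builds mm10 and NCBIM37 without their roles. Per the file headers, each deposited table holds estimated counts of fragments per gene, a scaled signal made from them, the FPKM and a status. A deposited table of group means was not used.

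Levels were tested as log2(FPKM + 1) with limma 3.58.1 in R 4.3.3, with a term for each of 9 strain-by-group cells (8 residual degrees of freedom), over the 15298 genes that reached an FPKM of 1 in 2 or more samples. Left out were 19 genes with a status other than OK in some sample. P-values were adjusted by the Benjamini-Hochberg method over all genes, with a threshold of 0.05. Since no label ties replicates to separate cultures, p-values measure only sample spread, which may be technical. Clones G2 and G5 were averaged with a term each. The lone 129/B6 WT iPSC sample is assumed to vary like the others. The fit was tested on simulated data. Alternatives were edgeR 4.0.16 on the estimated counts rounded to whole numbers, with TMM or DESeq2 1.42.0 size factors, other filters, a pseudocount of 0.1, quantile normalization, the strain's samples alone, a replicate block and leaving out each sample. FPKM rescaled to a common sum per sample or by TMM, and keeping genes of failed status, were added after the data were seen.

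The members, gene lists and tests were chosen with earlier results of these data known. Genes outside the members are named by a fixed rule, up to 3 called genes of the other lists per comparison with the largest change and a mean FPKM of at least 5, and a few of those are given. Members are described by role, with values of the largest called changes, and the promoters shown were chosen after the calls were seen. Promoter sequences are RefSeq's, in GRCm38.p6.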

Additional observations from a re-analysis of the deposited data

Results flagged for a closer look

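Some differences between groups differed themselves when tested with limma. For WT iPSC minus WT ESC, the 129/B6 difference minus the C57/B6 difference in log2(FPKM + 1) was -1.17 for Hk1, -1.81 for Aldoc, -0.87 for Tpi1 and -0.79 for Pgk1. It was -1.06 for Ldha, -1.91 for Ldhb, -1.83 for Pdk1, -1.12 for Bnip3, -1.35 for Egln1 and -1.42 for Car9. The 129/B6 side rests on 1 iPSC sample of passage 6 against ESC of passage 10 to 15, and strain, batch and passage cannot be told apart there.

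For Nanog-null minus WT in 129/B6, the iPSC difference minus the ESC difference was 1.61 for Hk1, 0.98 for Pfkm, 2.22 for Aldoc, 0.85 for Tpi1 and 0.69 for Pgk1. It was -0.51 for Pgam1, 0.91 for Eno2, 0.91 for Ldha and 2.30 for Ldhb. At pyruvate entry and among hypoxia genes it was 1.65 for Pdk1, 0.70 for Pdk2, 1.11 for Pdk4, 1.12 for Bnip3, 0.93 for Bnip3l, 0.995 for Egln1, 1.31 for Car9 and 1.29 for Slc16a3. The calls of Pdk2 and Slc16a3 were lost when 1 or another library was left out. The same WT iPSC and WT ESC samples of 129/B6 enter both sets of values.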

How the results depend on the processing

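Counts of members called stayed within 1.5 times of those reported in most settings. For G2 against G5 the 3 members became 5 with quantile normalization and 6 by edgeR with either scaling. They became 7 with 129/B6 samples alone and 7 with a replicate block, and leaving out 1 library gave 1 to 2. Over all genes 9.75% were called, 13.0% with quantile normalization, and 14.2% and 14.6% by edgeR. The share was 18.1% with 129/B6 samples alone, 17.2% with the block and 4.3% to 5.6% without 1 library. For Nanog-null iPSC against Nanog-null ESC the 9 became 4 with FPKM rescaled to a common sum, and leaving out 1 library gave 3 to 6. Over all genes 18.1% were called there, 13.4% with that rescaling and 8.09% to 13.9% without 1 library. For C57/B6 iPSC against ESC leaving out 1 library gave 0 to 11, and for the difference between strains 10 to 18. The shares of all genes called were then 0.144% to 30.6% and 12.8% to 38.3%. For C57/B6 against 129/B6 WT ESC the 26 members above became 15 with FPKM rescaled to a common sum, an alternative chosen after seeing the data. The share of all genes above went from 41.4% to 14.9%. Rescaled to a common sum, MEF minus ESC turned to 0.23 for Pgam1, 0.19 for Car9, 0.57 for Pdha1, 0.49 for Pdk2 and 0.88 for Hk2, and Nanog-null ESC minus WT ESC to 0.057 for Pgam1. Hk2 in MEF was 0.63 by edgeR with TMM and 0.61 with DESeq2 size factors, and the cause was not tested. That scaling moved the median of all genes by 0.12 for 129/B6 iPSC against ESC and by 0.18 for the difference between strains. Kept in the fit, Vegfa was 2.33 higher in MEF and changed by -1.56 in Nanog-null ESC. Replicate numbers did not pair the samples, as 1 of 15 correlations between groups was over 0.1 (-0.056 to 0.114), and the block moved no other count by over 1.5 times.

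Over all genes, C57/B6 iPSC against ESC gave 120 calls, 63 with a pseudocount of 0.1, 195 with no filter, 31 at a mean FPKM of 5, 35 and 40 by edgeR, 0 with C57/B6 samples alone (945 at an unadjusted p under 0.05), 246 with the block, 17 rescaled to a common sum, and 22 to 4679 without 1 library. G2 against G5 gave 1492, 946 with the smaller pseudocount, 2776 with 129/B6 samples alone, 2624 with the block and 658 to 856 without 1 library. Nanog-null iPSC against Nanog-null ESC gave 2771, and 4545, 4368 and 1238 to 2133 in those last 3 settings. With 129/B6 samples alone, 129/B6 iPSC against ESC went from 4021 to 6191 and the Nanog difference from 4419 to 6674. Without WT ESC 3 the difference between strains went from 2744 to 5854. At a mean FPKM of 5, 9481 genes were tested and fewer were called in each comparison.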
